A study of Mus musculus with 4 samples.

Results

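The measure described here is percent.mito, the share of a spot's transcripts that the authors assigned to mitochondrial genes. It was taken for every spot in the deposited spot table, 7271 of 7271, and it is 1 of 10 quantities given there per spot. Spots were grouped by the authors' 8 region names and by section. DZ is the germinal centre dark zone, LZ its light zone, and 3 border regions (GC_B Border, GC_T Border and GC_Medulla Border) lie 1 step outside the germinal centres. The names percent.mito and DZ, LZ, GC_B Border and so on are kept as deposited.

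The mitochondrial genome encodes core subunits of the respiratory chain, and its mRNAs carry poly(A) tails, so arrays that capture poly(A) RNA also capture them. A germinal centre is divided into a dark zone, where B cells divide and mutate their antibody genes, and a light zone, where they meet antigen on follicular dendritic cells and help from T cells. Around it lie the B cell follicles (B zone), the T cell zone and the medulla, whose cords and sinuses hold plasma cells and macrophages. A share is a ratio, so it moves with the mitochondrial transcripts and with all other transcripts alike.

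Draining lymph node tissue from mice was profiled on Visium arrays, with immunization dating back 14 days and gavage 3 days in the labels, which do not say whether gavage was repeated. Each array spot is a small region that can hold several cells of different types, so fewer cells of a type and less RNA per cell cannot be told apart. There was 1 group, with sections A, B, C and D, each 10 µm thick and 50 µm apart in depth, with 18 min of permeabilization and 16 cycles of PCR. The immunogen, the gavaged agent, the strain and the number of animals are not stated in the sources used here. The deposited section names all end in eYFP, and no genotype was read from this tag. The sections share 1 sample ID stem, so the spread between them may be technical. No untreated tissue was analysed here.

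The 4 sections held 1650 to 1887 spots. Their median depth per spot was 7726.5, 10528, 3677.5 and 3836 UMIs (unique molecular identifiers, each standing for a captured transcript), in the order A to D. Only 134 spots had under 1000 UMIs. Multiplying percent.mito by the spot's UMIs gave whole numbers in every spot, with a largest gap of 1.73e-11, so the column is a share of UMIs. The mitochondrial UMIs behind it summed to 759130, 965232, 337386 and 368629 in sections A to D. Which genes were counted as mitochondrial is not stated in the sources used here. In each section the tissue formed 2 separate pieces, called upper and lower here by their place on the array.

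Over all spots percent.mito ran from 0.329% in a medulla spot of section D with 304 UMIs to 14.3% in a medulla spot of section C with 1591 UMIs, and its median was 4.61%. Section means were 5.53% (A), 4.53% (B), 4.21% (C) and 4.59% (D), or 4.72% ± 0.564 (SD, n = 4). Section A stood above the other 3 sections. High values followed the outer rim of the tissue and were densest along the right rim of the upper piece, where medulla lies, as the map of the 4 sections shows. Low values lay in and around the dark zones and in much of the T zone.

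**Figure D1:**
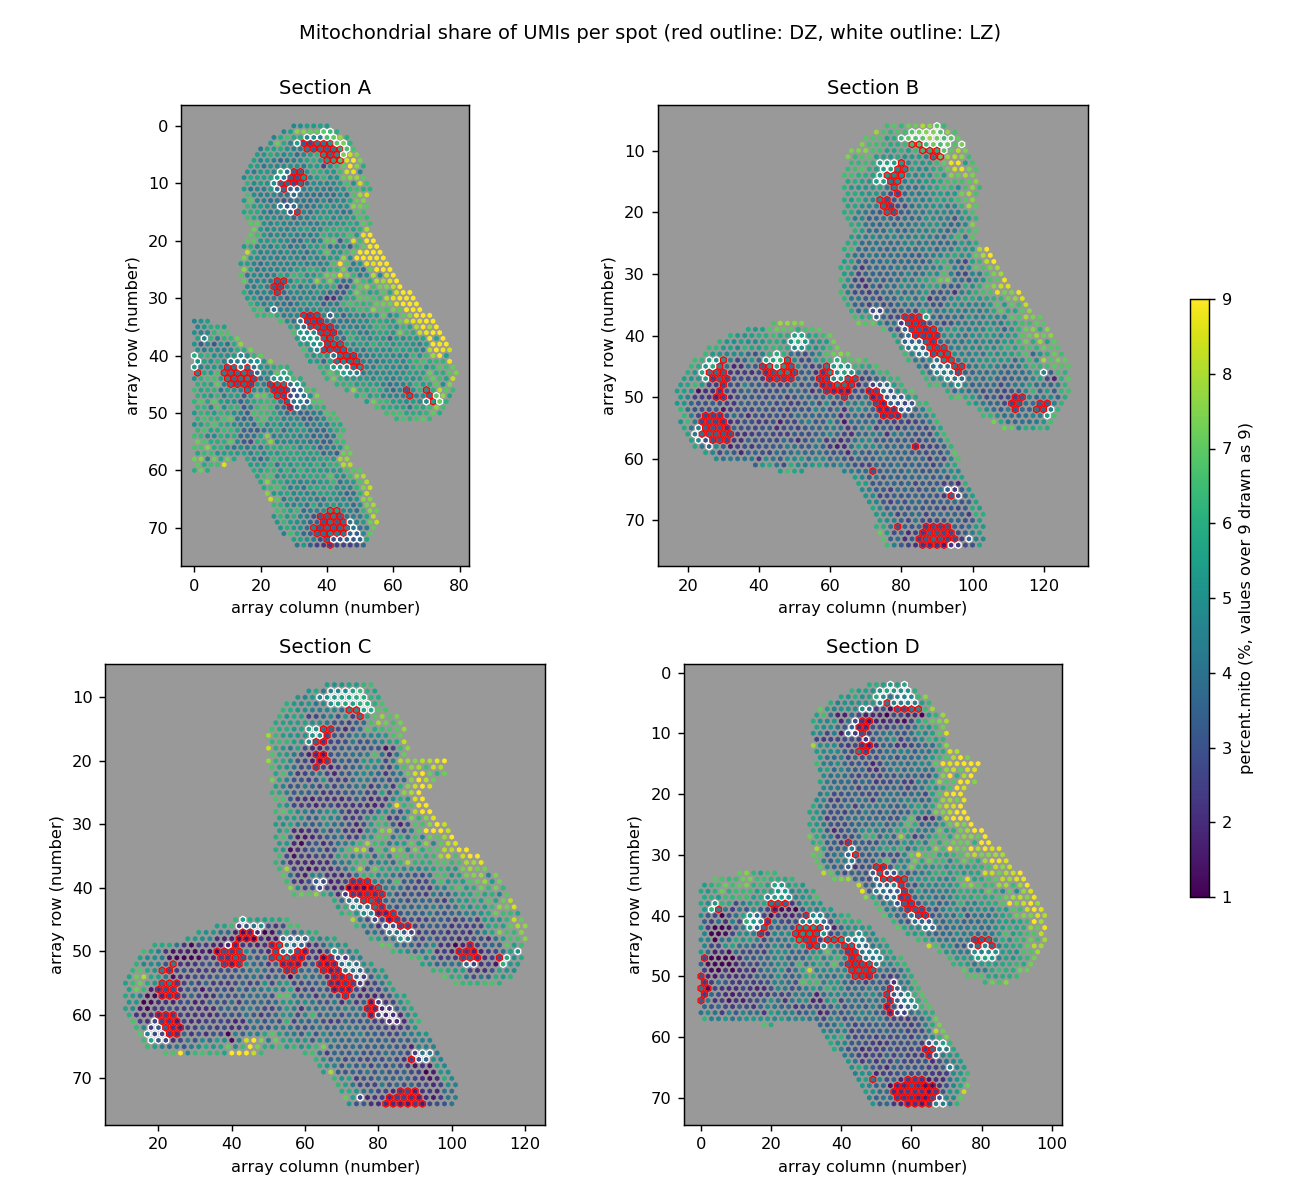
Each dot is a spot at its array column (x) and row (y), coloured by percent.mito in percent (values over 9 drawn as 9, under 1 as 1), in sections A to D, with DZ spots outlined in red and LZ spots in white. The highest spots line the right rim of the upper piece, and DZ spots are low in all 4 sections.

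The first question was how the regions ranked. Medulla had the highest mean over sections, 5.58% ± 0.592 (SD, n = 4), with 6.37% (A), 4.93% (B), 5.52% (C) and 5.49% (D). B zone followed with 5.23% ± 0.473, from 5.69%, 5.22%, 4.58% and 5.44% in the same order of sections. These were the leading regions in every section, with Medulla first in A, C and D and B zone first in B.

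In the middle of the order lay the light zone and its B-cell border. LZ had a mean of 4.47% ± 0.395 (4.70%, 4.88%, 3.99% and 4.32% in sections A to D). GC_B Border had 4.44% ± 0.635 (5.15%, 4.72%, 3.69% and 4.19%) and was the 4th of 8 in each section. LZ ranked 3 in sections B, C and D but 7 in section A, where only DZ was lower.

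The T zone and the other borders came next. The T zone mean was 4.10% ± 0.851, with 5.30% (A), 4.05% (B), 3.35% (C) and 3.71% (D). GC_Medulla Border had 3.86% ± 0.782 (5.00%, 3.62%, 3.25% and 3.55%), and GC_T Border had 3.76% ± 0.931 (5.01%, 3.84%, 2.83% and 3.35%). In these 3 regions section A was clearly apart from sections B, C and D.

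DZ was the lowest of the 8 regions in 4 of 4 sections. Its mean was 3.26% ± 0.552, with 3.90% (A), 3.42% (B), 2.57% (C) and 3.17% (D). With all UMIs of its spots pooled, the DZ share in section C was 2.62% (exact binomial 95% interval 2.59% to 2.65%, counting error only). Counting error is therefore small beside the spread between sections.

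**Figure D2:**
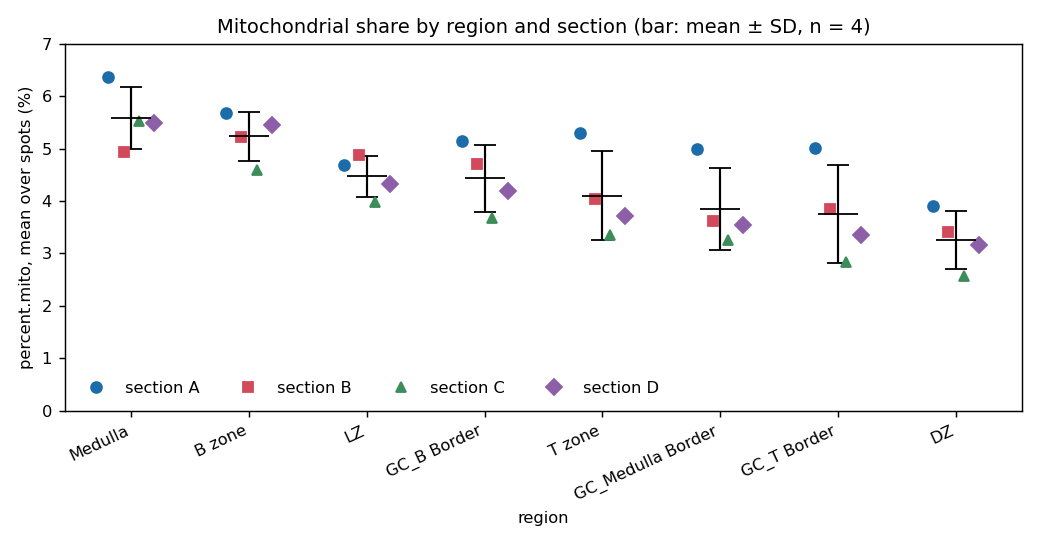
Points are the mean percent.mito (%) over the spots of each region (x axis) in sections A to D, and the bars give mean ± SD over the 4 sections. Medulla (5.58%) and B zone (5.23%) are highest and DZ (3.26%) is lowest, and section A is the top point in 7 of 8 regions.

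Not every neighbour in this order was apart from the next. B zone exceeded LZ by 0.764 percentage points ± 0.357, T zone exceeded GC_Medulla Border by 0.246 ± 0.146, and GC_T Border exceeded DZ by 0.492 ± 0.423, each in 4 of 4 sections. Medulla exceeded B zone in only 3 of 4 sections (0.343 ± 0.564). The gaps from LZ to GC_B Border (0.0357 ± 0.334), from GC_B Border to T zone (0.334 ± 0.353) and from GC_Medulla Border to GC_T Border (0.0989 ± 0.275) were no larger than their spread and held in 3, 3 and 2 sections. With 4 sections the exact two-sided sign-flip permutation test has 16 sign assignments, of which 2 give the smallest possible p of 0.13, and the smallest adjusted p over these 7 steps was 0.292.

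Each region was then set against all other spots of its section. DZ differed by -1.57 percentage points ± 0.260, GC_T Border by -0.982 ± 0.428, GC_Medulla Border by -0.892 ± 0.248 and T zone by -0.821 ± 0.421, all below 0 in 4 of 4 sections. Medulla (1.23 ± 0.551) and B zone (0.627 ± 0.371) were above 0 in 4 of 4. LZ (-0.260 ± 0.506) and GC_B Border (-0.310 ± 0.350) were below 0 in 3 of 4 sections, with section B above, and without section B they came to -0.468 and -0.480. Without section A the LZ difference was -0.0549. The exact permutation p was 0.13 for each of the 6 regions with 1 direction, or 0.167 after Benjamini-Hochberg adjustment over 8 regions. Apart from the steps between neighbours in the order above, 28 comparisons were tested, 27 of them with values in 4 sections. Of these, 19 had the same direction in all 4 sections, which random signs give at a rate of 0.13. Several of them share spots, and none could be significant with this number of sections. Region names largely follow expression clusters of the same spots, and whether mitochondrial genes entered that clustering is not stated in the sources used here.

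Distance from the tissue edge moved with these differences. B zone spots lay on average 2.17 steps from a position without a spot, against 4.46 for Medulla, 4.87 for DZ and 6.96 for T zone, and 40.3% of B zone spots were edge spots. Compared only with other spots at the same step from the edge, B zone came to -0.363 ± 0.400 and was below 0 in 4 of 4 sections. The T zone difference shrank to -0.239 ± 0.446 and was negative in 2 of 4 sections. By contrast, DZ (-1.18 ± 0.235) and Medulla (1.16 ± 0.556) kept their direction in 4 of 4 sections when matched in this way. The borders were also below 0 in 4 of 4 sections, with -0.454 ± 0.291 for GC_T Border, -0.552 ± 0.260 for GC_Medulla Border and -0.570 ± 0.364 for GC_B Border. Within the lower tissue piece the Medulla difference was 0.326 ± 0.499 and positive in 3 of 4 sections, and within the upper piece the B zone difference was 0.135 ± 0.145 and positive in 3 of 4.

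The dark and light zones hold B cells of the same germinal centres, so they were compared directly. DZ minus LZ was -0.796 (A), -1.46 (B), -1.42 (C) and -1.16 (D) percentage points, a mean of -1.21 ± 0.304. The difference was larger than the spread between sections and had the same direction in 4 of 4 (exact sign-flip permutation p = 0.13). It was -1.19 ± 0.481 between spots at the same step from the tissue edge, -1.37 ± 0.415 in the upper piece and -0.929 ± 0.454 in the lower piece, in 4 of 4 sections each time. A correction for log10 UMIs left -1.21.

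The same contrast was drawn inside each germinal centre patch, a set of connected DZ and LZ spots. Of 70 patches, 33 held at least 3 spots of each zone, with 7, 8, 8 and 10 in sections A to D and 802 spots in all. The DZ mean was below the LZ mean in 32 of these 33 patches, in 6 of 7 in A and in all 8, 8 and 10 in B, C and D. Patches of different sections can be cuts of 1 germinal centre, so this count describes the patches and is not a test.

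Averaged over its patches, the difference was -0.870 (A), -1.31 (B), -1.08 (C) and -1.16 (D), a mean of -1.11 ± 0.186 (exact sign-flip permutation p = 0.13). The median patch had -1.07. The largest difference, -2.23, was in a patch of the lower piece in section B, with 12 DZ spots at 3.30% and 6 LZ spots at 5.53%. The exception was a patch of the lower piece in section A, with 23 DZ spots at 3.93% and 9 LZ spots at 3.52%, a difference of 0.413. With at least 6 spots of each zone, 19 patches remained, DZ was lower in 18 and the mean was -0.884 ± 0.382.

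Patches differed among themselves at least as much as the zones did. DZ means ran from 2.03% to 6.05% over patches and LZ means from 2.10% to 6.99%. Patches with a high LZ also tended to have a high DZ, with Spearman's rho of 0.607, 0.905, 0.929 and 0.60 over the 7, 8, 8 and 10 patches of sections A to D. The points of a section share a library, and the zones of a patch share their place in the tissue. In 33 of 33 patches the DZ spots lay on average deeper from the tissue edge than the LZ spots. The part of this position in the difference was measured only by the edge-matched value above, and by spots at least 4 steps from the edge, where DZ minus LZ inside patches was -0.968 ± 0.220.

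**Figure D3:**
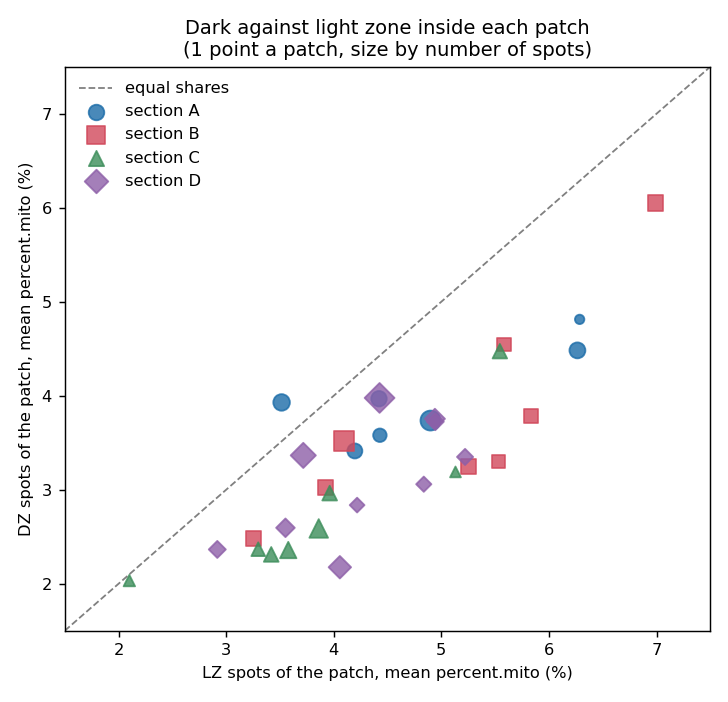
Each point is a germinal centre patch with at least 3 spots of each zone, placed by the mean percent.mito (%) of its LZ spots (x) and DZ spots (y), with symbols for sections A to D, size growing with the number of spots and a dashed line of equal shares. Of the 33 patches, 32 lie below the line, and the exception is a patch of section A at 3.52% LZ and 3.93% DZ.

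Since percent.mito is a ratio, its parts were read separately as UMIs per spot. DZ spots held 361 mitochondrial and 10085 other UMIs on average over sections, and LZ spots held 536 and 10940. DZ over LZ was 0.668 ± 0.067 for mitochondrial UMIs (0.717, 0.648, 0.582 and 0.724 in sections A to D) and 0.929 ± 0.044 for other UMIs. Mitochondrial UMIs were thus lower in DZ than in LZ in 4 of 4 sections, by more than the other UMIs were.

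Against the B zone, DZ had fewer mitochondrial UMIs, at a ratio of 0.725 ± 0.106, and more of the others, at 1.22 ± 0.035, both in 4 of 4 sections. LZ had more of the other UMIs than B zone (1.32 ± 0.083, 4 of 4 sections) and a mitochondrial ratio of 1.09 ± 0.136, above 1 in 3 of 4. Against LZ and B zone, the low share of DZ thus went with fewer mitochondrial UMIs per spot. Against the T zone, DZ held more of both kinds in the mean, 361 mitochondrial and 10085 other UMIs against 292 and 6405.

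Medulla was different: its spots were poor in RNA. They held 238 mitochondrial and 4068 other UMIs, against 477 and 8194 in B zone, ratios of 0.493 ± 0.085 and 0.484 ± 0.121. Against the T zone, with 292 and 6405, the mitochondrial ratio was 0.917 ± 0.255 and above 1 in 2 of 4 sections, while the ratio of other UMIs was 0.643 ± 0.108 and below 1 in 4 of 4. Against the T zone, the higher share of Medulla thus went with fewer UMIs of other genes, with no shared direction in mitochondrial UMIs. Against B zone both kinds were lower to a like degree. GC_Medulla Border was also poor in RNA, with 185 mitochondrial and 4501 other UMIs, but its share was 3.86%. T zone spots had fewer UMIs of either kind than B zone spots, 0.566 ± 0.153 for mitochondrial and 0.751 ± 0.118 for others.

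**Figure D4:**
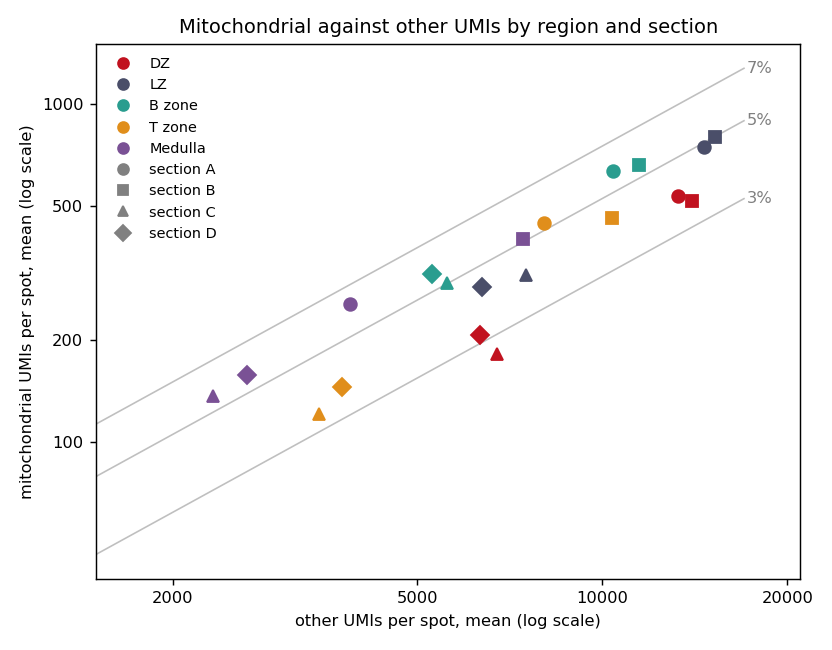
Mean mitochondrial UMIs per spot (y, log scale) against mean other UMIs per spot (x, log scale) for 5 regions (colour) in sections A to D (symbol), with grey lines at shares of 3%, 5% and 7%. DZ points lie lowest against the lines and Medulla points combine few UMIs of both kinds with a high share.

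DZ and LZ spots were also followed by steps from the nearest spot of the other zone. Steps were counted over all spots of a section, also through other regions. For spots more than 1 step away, the nearest spot of the other zone can thus belong to another patch. A course within single germinal centres was not read apart. DZ spots touching LZ had 3.53% ± 0.525, spots 2 steps away 3.09% ± 0.618, 3 steps away 3.19% ± 0.689, and 4 or more steps away 2.94% ± 0.574. DZ spots 3 or more steps away differed from those touching LZ by -0.483 ± 0.481, with 0.0771 (A), -1.0 (B), -0.269 (C) and -0.739 (D). Sections B, C and D were thus lower at a distance and A was not (exact sign-flip permutation p = 0.25), and without section B the mean was -0.310.

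LZ spots touching DZ had 4.28% ± 0.463, spots 2 steps away 4.68% ± 0.351 and spots 3 or more steps away 4.71% ± 0.581. The difference of 2 or more steps from 1 step was -0.0492 (A), 0.569 (B), 0.515 (C) and 0.571 (D), a mean of 0.401 ± 0.301 (exact permutation p = 0.25). In sections B, C and D the light zone was higher away from the dark zone, and section A stood apart. Among LZ spots at least 4 steps from the tissue edge the difference was 0.0280 ± 0.462.

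The series' title points to the border of dark zone and medulla, so DZ spots there were read apart. The 173 DZ spots that touch GC_Medulla Border had 3.35% ± 0.667 and the other DZ spots 3.25% ± 0.565. The differences were 0.50 (A), -0.419 (B), 0.216 (C) and 0.114 (D), a mean of 0.103 ± 0.384 (exact permutation p = 0.625), within the spread between sections. Without section A the mean was -0.0297, and without section B it was 0.276.

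The borders were next compared with the zone they cut into. GC_Medulla Border minus Medulla was -1.36 (A), -1.31 (B), -2.27 (C) and -1.94 (D), a mean of -1.72 ± 0.465. GC_T Border minus T zone was -0.345 ± 0.133, and GC_B Border minus B zone was -0.800 ± 0.352. Each was below 0 in 4 of 4 sections (exact permutation p = 0.13, adjusted 0.13 over 3 borders), and the first was the largest in every section. Between spots at the same step from the tissue edge these came to -1.24 ± 0.450 and -0.354 ± 0.151, in 4 of 4 sections, and to -0.250 ± 0.216 for GC_B Border, in 3 of 4. At least 4 steps from the edge, GC_Medulla Border minus Medulla was -1.08 ± 0.419, in 4 of 4 sections, and GC_B Border minus B zone was -0.0706 ± 0.608, negative in 2 of 4. Within the lower piece the GC_Medulla Border difference was -0.955 ± 0.433, in 4 of 4 sections, and the GC_T Border difference was -0.0483 ± 0.202, negative in 2 of 4.

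Beyond the border, the course was followed in steps on the array. On the medulla side percent.mito was 3.86% ± 0.782 at 1 step, 4.46% ± 0.729 at 2, 4.67% ± 0.511 at 3, 5.01% ± 0.370 at 4, 5.42% ± 0.465 at 5 to 9 and 6.96% ± 0.589 at 10 or more steps. The mean was thus higher at each further step. Spots at 1 step differed from those at 5 or more steps by -1.72 (A), -1.72 (B), -2.73 (C) and -2.54 (D), a mean of -2.18 ± 0.532. The difference was -1.5 ± 0.578 between spots at the same step from the tissue edge and -1.18 ± 0.632 in the lower piece, in 4 of 4 sections each time.

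The T side changed less. Its means were 3.76% at 1 step, 3.78% at 2, 3.94% at 3, 3.98% at 4 and 4.26% at 5 to 9 steps, with 5.63% in the 25 spots at 10 or more. The difference of 1 step from 5 or more was -0.498 (A), -0.410 (B), -0.675 (C) and -0.579 (D), a mean of -0.540 ± 0.113. Matched on the step from the edge it was -0.559 ± 0.211, in 4 of 4 sections. It was seen in the upper piece (-0.620 ± 0.206, 4 of 4) but not in the lower (-0.0183 ± 0.303, negative in 2 of 4), and the difference between pieces was not tested.

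On the B side the means were 4.44% at 1 step, 4.97% at 2, 5.24% at 3, 5.52% at 4 and 5.49% at 5 to 9 steps. The difference of 1 step from 5 or more was -0.815 (A), -0.726 (B), -1.44 (C) and -1.17 (D), a mean of -1.04 ± 0.329. This course depended on the tissue edge. Matched on the step from the edge it was -0.266 ± 0.271 and negative in 3 of 4 sections. Among spots at least 4 steps from the edge it was 0.463 ± 0.13 and positive in 4 of 4. That value rests on a thin group: B-side spots at 5 or more steps lay on average 1.76 steps from the edge. In all, 185 B zone spots were at least 4 steps from it.

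In UMIs, medulla-side spots at 1 step had 0.714 ± 0.212 times the mitochondrial UMIs of those at 5 or more steps, below 1 in 4 of 4 sections, and 1.15 ± 0.263 times the others, above 1 in 3 of 4. On the T side the ratios were 0.981 ± 0.053 for mitochondrial UMIs (below 1 in 3 of 4) and 1.13 ± 0.085 for others (above 1 in 4 of 4). So on the T side the lower share next to the germinal centres went with more UMIs of other genes at a similar number of mitochondrial UMIs. On the B side the ratios were 0.90 ± 0.119 and 1.09 ± 0.146, each with 1 section on the other side of 1.

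**Figure D5:**
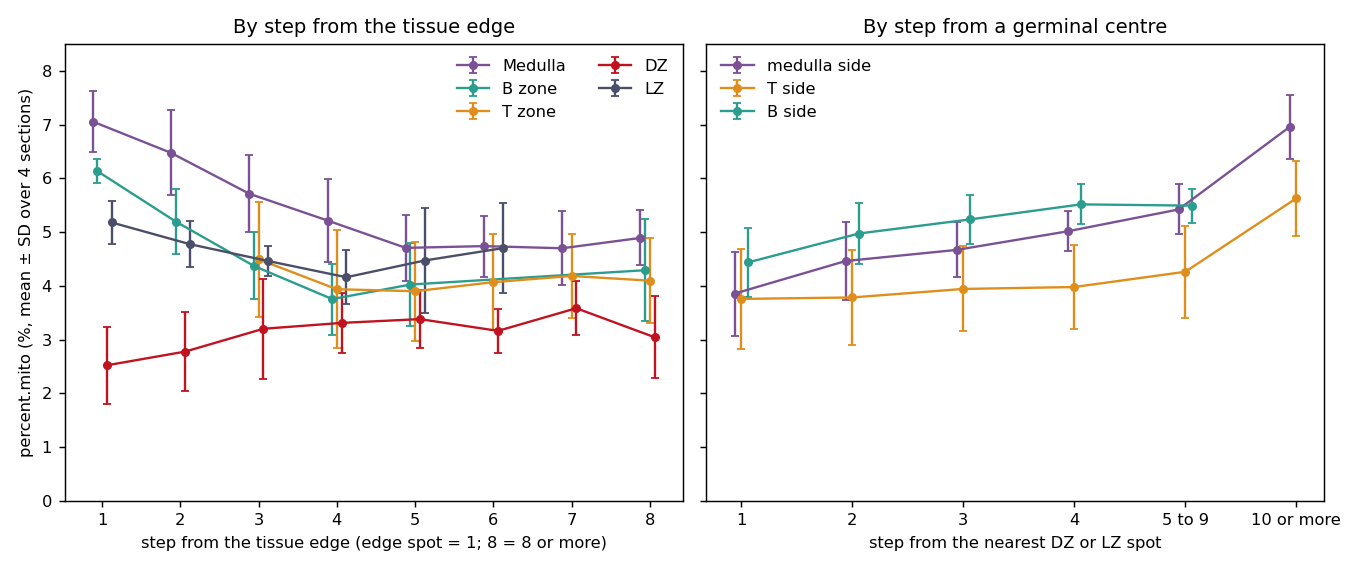
Mean percent.mito (%, ± SD over 4 sections) by step from the tissue edge for 5 regions (left) and by step from the nearest DZ or LZ spot on the medulla, T and B sides (right); thinly filled steps are not drawn. Medulla goes from 7.06% at the edge to 4.71% at step 5, DZ is lowest at the edge, and the medulla side climbs from 3.86% at 1 step from a germinal centre to 6.96% at 10 or more.

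The tissue edge was the remaining axis. Edge spots, those with fewer than 6 neighbours in the spot table, numbered 247, 260, 262 and 263 in sections A to D, of which 33, 7, 0 and 23 lay at the frame of the capture area. Medulla edge spots had 7.06% ± 0.569 and inner ones 5.30% ± 0.611, B zone edge spots 6.13% ± 0.226 and inner ones 4.63% ± 0.640, and GC_B Border edge spots 5.72% ± 0.293 and inner ones 4.18% ± 0.737. The B zone edge was thus more alike over sections than the B zone interior.

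Edge minus inner in Medulla was 1.47 (A), 1.63 (B), 2.18 (C) and 1.73 (D), a mean of 1.75 ± 0.302. In B zone it was 1.00, 1.65, 2.02 and 1.34, a mean of 1.5 ± 0.436. In GC_B Border it was 0.487, 1.71, 2.18 and 1.80, a mean of 1.54 ± 0.733. All 3 were above 0 in 4 of 4 sections (exact sign-flip permutation p = 0.13, adjusted 0.167 over 4 regions), and section C had the largest difference in each. At the same step from the germinal centres the Medulla difference was 1.36 ± 0.401 and the B zone difference 1.48 ± 0.391, and without spots at the frame they were 1.83 ± 0.289 and 1.53 ± 0.398.

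DZ went the other way where it could be read. With at least 5 spots on each side, 2 sections gave a value, -0.667 in C from 6 edge spots and -0.623 in D from 10. When the frame spots were left out only section C gave a value, and when the edge was set by the tissue mark only 1 section gave a value, -0.207. LZ had 15 edge spots in all, at 5.18%, and a difference of 0.796 in section D alone. T zone had 11 edge spots, with a difference of 0.729 in section A alone. DZ, LZ and T zone are rarely at the edge, and values from 1 section were not tested.

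By single steps, Medulla went from 7.06% at the edge to 6.47% at step 2, 5.71% at step 3, 5.22% at step 4 and 4.71% at step 5, and was 4.89% at step 8 or more. B zone went from 6.13% to 5.20%, 4.37% and 3.75% over steps 1 to 4. LZ went from 5.18%, over 15 edge spots, to 4.16% over the same steps, and had 4.47% at step 5 and 4.70% at step 6. Spearman's rho with the step from the edge over LZ spots was -0.180 ± 0.203, below 0 in 3 of 4 sections. At step 4, its lowest step, B zone was thus close to DZ, which had 3.31% there. At the edge they had 6.13% and 2.52%, the DZ value from 22 spots. Deeper in, B zone had 4.02% at step 5 (37 spots) and 4.29% at step 8 or more (16 spots). DZ had 3.38% and 3.04% at these steps. T zone means lay between 3.90% and 4.18% from step 4 inwards, with no course shared by the sections. At step 4 sections A to D had 5.33%, 4.31%, 3.10% and 3.00%. At step 8 or more they had 5.15%, 3.97%, 3.22% and 4.03%, so section D was higher deeper inside.

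Distances from the edge and from the germinal centres were read together on the medulla side, with both tissue pieces pooled. Medulla had 6.36% in the upper and 4.45% in the lower piece, and the make-up of these groups by piece was not read. Edge spots 10 or more steps from a germinal centre had 8.03% ± 0.335 (8.09%, 7.54%, 8.25% and 8.24% in sections A to D), over 148 spots. Spots at least 7 steps from the edge and 1 to 4 steps from a germinal centre had 4.32% ± 0.612, over 370 spots. The lowest section of the former lay above the highest of the latter, 5.01% in A. Edge spots 1 to 4 steps from a germinal centre had 5.53% ± 0.566, and at 4 to 6 steps from the edge the values were 4.14% ± 0.846 at 1 to 4 steps and 6.06% ± 0.828 at 10 or more. At 7 or more steps from the edge, spots 5 to 9 steps from a germinal centre had 5.34% ± 0.400 over 229 spots, above those at 1 to 4 steps in 4 of 4 sections. The 26 spots at 10 or more steps there had 4.82% ± 0.963, with 1 spot in section B and 3 in A.

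In Medulla, B zone and GC_B Border, edge spots held more UMIs of both kinds than inner spots. In Medulla the ratio of edge to inner was 1.69 ± 0.384 for mitochondrial and 1.24 ± 0.218 for other UMIs, in B zone 1.79 ± 0.341 and 1.37 ± 0.162, and in GC_B Border 1.79 ± 0.480 and 1.28 ± 0.205. All 6 ratios were above 1 in 4 of 4 sections. The 22 DZ edge spots instead held fewer of both, 120 mitochondrial and 3997 other UMIs against 368 and 10273 inside. The 15 LZ edge spots held 540 and 8962 against 537 and 11032. In Medulla, B zone and GC_B Border the higher share at the edge thus came with more mitochondrial UMIs, unlike the higher share of Medulla against T zone. Whether cells, RNA at the rim or capture differ at the edge was not tested.

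The tissue pieces differed in the medulla. The upper piece had 6.36% ± 0.422 (6.89%, 5.87%, 6.25% and 6.42% in sections A to D) and the lower 4.45% ± 0.795 (5.59%, 3.79%, 4.37% and 4.04%). The pieces did not overlap over the 4 sections, and upper minus lower was 1.91 ± 0.454. The exact permutation p was 0.13, or 0.313 adjusted over 5 regions. Between spots at the same steps from the edge and from a germinal centre it was 1.74 ± 0.323, in 4 of 4 sections. Mitochondrial UMIs per spot were 1.79 ± 0.356 times as many in the upper medulla, and other UMIs 1.18 ± 0.108 times.

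GC_Medulla Border had 4.72% ± 0.764 in the upper and 3.49% ± 0.867 in the lower piece, with the upper higher in 4 of 4 sections, from 3.70% against 3.48% in D to 5.27% against 2.98% in B. This border was not among the tested regions. In B zone, T zone, LZ and DZ the pieces were closer than in Medulla in the mean. Upper minus lower was 0.0259 ± 0.359 in B zone and 0.536 ± 0.765 in T zone, positive in 2 and 3 of 4 sections, and 0.757 ± 0.642 in LZ, positive in 3 of 4. In DZ it was 0.318 ± 0.376 and positive in 4 of 4 sections, but section B carried most of it with 0.872, and without B the mean was 0.134. Between DZ spots at the same step from the edge it was 0.255 ± 0.414 and positive in 3 of 4. For the T zone, the mean without section A was 0.846 and without section B 0.281.

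Within regions, percent.mito was related to the spot's UMIs by Spearman's rho over spots, given per section with no p because spots are not replicates. In GC_B Border rho was 0.542 (A), 0.569 (B), 0.542 (C) and 0.348 (D), a mean of 0.50 ± 0.102 over 667 spots. In B zone the mean was 0.376 ± 0.15 over 1294 spots, above 0 in 4 of 4 sections. Spots rich in RNA thus had the higher share in these B cell regions. After ranks were corrected for the steps from the edge and from a germinal centre, the values were 0.442 in GC_B Border and 0.206 in B zone.

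Other regions had no common sign. In T zone rho was -0.268 (A), 0.662 (B), 0.0975 (C) and -0.0284 (D) over 1834 spots, and in DZ -0.126, 0.424, 0.132 and -0.00376 over 539. Medulla had 0.0797 ± 0.147 over 2130 spots. Over all spots of a section, rho with UMIs was 0.0133 ± 0.235, so depth and percent.mito had no shared direction across the tissue, whereas rho with the step from the edge was -0.372 ± 0.034 and with the step from a germinal centre 0.369 ± 0.113, each with 1 sign in 4 of 4 sections.

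The ribosomal share, percent.ribo, which shares the UMI total as its denominator, went with percent.mito in 5 regions in 4 of 4 sections. Mean rho was 0.494 ± 0.049 in GC_Medulla Border, 0.464 ± 0.137 in GC_B Border, 0.405 ± 0.197 in B zone, 0.351 ± 0.082 in Medulla and 0.283 ± 0.13 in LZ. DZ (0.343 ± 0.268), GC_T Border and T zone had 1 section below 0, section A each time.

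The deposited plasma cell marker score, pc_markers, had the clearest relation among the 6 scores. In GC_Medulla Border rho with percent.mito was -0.753 (A), -0.535 (B), -0.416 (C) and -0.147 (D), a mean of -0.463 ± 0.253 over 235 spots. In Medulla it was -0.377, -0.386, -0.214 and -0.349, a mean of -0.331 ± 0.080. Medullary spots with a higher plasma cell score thus had a lower mitochondrial share in every section. Corrected for both distances, the means were -0.476 and -0.312, in 4 of 4 sections. GC_B Border was also below 0 in 4 of 4 sections, with a mean of -0.149 ± 0.090. In T zone rho was 0.0257 ± 0.027. GC_T Border (0.184 ± 0.263) and B zone (0.108 ± 0.102) were above 0 in 3 of 4 sections. DZ (0.0692 ± 0.141) and LZ (0.0584 ± 0.301) had no common sign.

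For the score Mo_GC_vs_Mem, read from its name as germinal centre against memory, rho was 0.317 ± 0.087 in GC_B Border and -0.0977 ± 0.053 in DZ, each with 1 sign in 4 of 4 sections. Of the scores whose names end in SC, Mo_CD34_SC had 0.294 ± 0.180 in LZ, 0.227 ± 0.104 in B zone and 0.133 ± 0.072 in T zone, and Mo_Nr4a1Inmt_SC had 0.211 ± 0.077 in B zone, all above 0 in 4 of 4 sections. Of 48 relations of a score in a region, 16 had 1 sign in all 4 sections, 11 above 0 and 5 below. Most of these were weak, and the genes behind the scores are not stated in the sources used here.

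Percent.mito varied smoothly over the tissue. The correlation of a spot with the mean of its neighbours in the same region was 0.860 ± 0.031 in Medulla, 0.811 ± 0.037 in GC_B Border, 0.806 ± 0.116 in LZ, 0.793 ± 0.109 in T zone and 0.766 ± 0.046 in B zone. It was weaker in DZ (0.621 ± 0.152), GC_Medulla Border (0.605 ± 0.175) and GC_T Border (0.568 ± 0.201). Counting error made up from 3.48% of the variance over spots in GC_B Border to 11.4% in GC_T Border. Little of the spread within regions is thus counting error. Medulla was the most varied region, with an SD over spots of 1.91 percentage points, and GC_T Border the least, with 0.749.

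Sections differed in all regions, by a ratio of the highest to the lowest mean of 1.22 in LZ to 1.77 in GC_T Border. Section A was highest in 7 of 8 regions, with LZ the exception, where B was highest. Section C was lowest in 7 of 8 regions, with Medulla the exception, where B was lowest. Section A was not the deepest, and C and D were alike in depth while D was above C in 7 of 8 regions. The section order is a description of these libraries, and depth, slide position and tissue cannot be told apart in it.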

How the data were processed

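Visium RNA of 4 sections of mouse lymph node was analysed from a table with a line for each spot. The authors deposited the total UMI count of a spot as a raw count, without normalization, and percent.mito and percent.ribo as a percent of that count, by their column names. The 6 score columns are the authors' deposited score values, with gene lists not stated in the sources used here. Space Ranger 1.3.1, Seurat 4.2.1 and mm10 are named in the submitters' processing notes. Region names are the authors'.

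From these, mitochondrial UMIs were recovered as percent.mito times the UMI count over 100. Steps were counted on the hexagonal array, where an inner spot has 6 neighbours, from the nearest DZ or LZ spot and from the nearest position without a spot in the table. Spots marked as tissue in the authors' alignment files but absent from the table (20, 33, 38 and 29 in sections A to D) were not used here.

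The section was the unit (n = 4), spots were never replicates, and differences between section means were tested by exact two-sided sign-flip permutation with Benjamini-Hochberg adjustment within each family. Correlations are Spearman's rho over spots, without p. Patches needed at least 3 spots of each zone. Python 3.11.15, numpy 2.4.6, pandas 2.3.3 and scipy 1.17.1 were used. Data were also simulated at the 7271 spot positions with counting noise only. The set values of 9 comparisons, some with no planted difference, were recovered to within 0.0424 percentage points. This checks the calculation and not the accuracy in the real data. No gene is named, since the table holds none, all 8 regions and 6 scores are, and the patches named singly are those at either end of the DZ minus LZ difference. The measure, regions and comparisons were chosen with earlier results of these data known. Some comparisons were added after first looks at the data: those by steps between DZ and LZ, of DZ spots touching the medulla side, between tissue pieces and within matched steps. Alternatives covered medians, pooled shares, log2 values, ranks, a minimum of 1000 UMIs, correction for depth, a denominator without ribosomal UMIs, tissue pieces and edge spots.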

Additional observations from a re-analysis of the deposited data

Results flagged for a closer look

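In 7 of 99 results examined, 1 section lay far from the other 3 by the gap over the range, a rule that chance alone meets in about 1 in 20 groups. The LZ difference of 2 or more steps from 1 step from DZ was -0.0492 in section A, against 0.515 to 0.571 in the others. Section A also stood apart in rho of percent.mito with Mo_GC_vs_Mem, with 0.0174 in LZ against -0.240 to -0.206, and 0.446 in GC_B Border against 0.259 to 0.284. In the T zone, rho with percent.ribo was -0.152 in A and 0.217 to 0.278 elsewhere. The rank correlation with UMIs in GC_B Border was 0.348 in section D and 0.542 to 0.569 elsewhere. Section B differed in rho with Mo_Inmt_SC in GC_B Border, 0.133 against -0.107 to -0.0869, and in rho with Mo_Nr4a1_SC in GC_Medulla Border, 0.0636 against -0.0343 to -0.0279. The count of flagged results is near the rate that chance gives, and several of the results share spots. Whether anything sets these sections apart was not tested.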

How the results depend on the processing

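For 30 comparisons, 465 alternative values were computed; 452 kept their direction and 13, from 6 comparisons, reversed it. DZ minus LZ, Medulla against other spots and the edge differences of Medulla, B zone and GC_B Border kept the sign of their mean throughout. So did each border against its parent zone, but GC_B Border came to -0.0706 at least 4 steps from the edge and GC_T Border to -0.0483 in the lower piece, each negative in 2 of 4 sections. DZ minus LZ ran from -1.34 to -1.12 with each section left out. Of the reversals, 5 came from settings of the tissue edge. B zone minus other spots was -0.322 at least 4 steps from the edge and -0.363 when matched on edge steps, the B side course was 0.463 at least 4 steps from the edge, and LZ minus other spots was 0.0790 there and 0.0474 with medians. GC_B Border minus other spots was 0.0481 with pooled shares and 0.0589 in the lower piece. Differences near 0 also turned: B zone upper minus lower piece was -0.0376 without ribosomal UMIs in the denominator, -0.0188 without edge spots and -0.0816 to 0.179 with each section left out. DZ touching the medulla side minus other DZ was -0.0149 in the lower piece and -0.0297 to 0.276 with each section left out. The cause was not tested beyond the matching itself. Of 192 alternative correlations 9 moved by more than the spread between sections, all after correction for both distances. Serial sections of 1 sample cannot show variation between animals. Counting error limited little, since it was at most 11.4% of the variance over spots in the mean of any region. All differences were paired by section, and with 1 group there was no other pairing to try.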
